A study of Mus musculus with 2 samples.

Results

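Cycling nephron progenitors are the dividing cells of the pool from which the nephrons of the kidney arise. They were chosen from 14565 kidney cells of newborn mice by the transcripts detected in each cell, and 290 cells, 1.99% of all, met the rule. A cell had to hold at least 1 UMI (unique molecular identifier, the tag of 1 captured transcript) of at least 3 of the 7 progenitor genes Six2, Cited1, Crym, Spock2, Eya1, Meox1 and Uncx, and none of Lhx1, a transcription factor of the differentiating nephron. It also had to hold at least 3 of the 8 cell cycle genes Mki67, Top2a, Cdk1, Cenpf, Ube2c, Birc5, Nusap1 and Tpx2. Cells with a deposited hybrid doublet score over 1 were dropped, which removed 34 of 210 control and 8 of 122 exposed cells that met the other criteria. The cells compared with them, 559 in all, passed the same progenitor criteria with 2 or fewer cycle genes and are called non-cycling below, although cells in early S phase or with shallow counts can fall among them.

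Whole kidneys of C57BL/6J mice at postnatal day 2 were profiled by 3′ droplet single-cell RNA sequencing, with 1 library of the control and 1 of a group exposed to maternal diabetes, to study kidney development under that exposure. The design text names male mice, no allele or agent other than the exposure is given, and the labels do not say how the mothers became diabetic. The labels name both 1 kidney and pooled cells, so whether a library holds cells of more than 1 animal is not settled. Each group is 1 library, so the exposure could not be tested, and every 95% interval below covers counting error only.

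The nephron progenitor is a mesenchymal cell that caps the tips of the branching ureteric bud. It renews itself under Six2, and on Wnt9b and Wnt4 signalling it leaves the pool to form the renal vesicle, the first epithelial stage of a nephron. In the newborn mouse the pool is in its last days, and the balance between division and differentiation sets how many nephrons form. A dividing cell copies its DNA in S phase with the MCM helicase, the sliding clamp Pcna and enzymes of nucleotide supply, and in G2 and M phases it builds the spindle and kinetochores and destroys cyclins through the anaphase-promoting complex.

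The control library gave 176 cycling and 345 non-cycling progenitors of 9071 cells, and the exposed library 114 and 214 of 5494. Cycling cells were deeper, with medians of 6364.5 UMIs per control cell and 7592 per exposed cell against 4050 and 5153.5 in non-cycling cells. Genes per cycling cell had medians of 2117 and 2334.5. The cycling gate held 1189895 control and 940410 exposed UMIs over the 8930 genes listed for both libraries. The mitochondrial share of UMIs per cycling cell had a median of 5.61% (control) and 4.64% (exposed), and over all cells it was 6.97% and 5.25%. The libraries share 14 cell barcodes.

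The label was checked against genes outside the rule. At least 3 of 10 further progenitor markers, among them Wt1, Pax2, Sall1, Itga8 and Gdnf, were detected in 79.5% of control (72.8 to 85.2, exact Clopper-Pearson interval) and 86.8% of exposed cycling cells (79.2 to 92.4). The shares were 60.3% and 69.2% in the shallower non-cycling cells, and 10.3% and 13.9% in cells outside the gate. Of the authors' unnamed clusters, cluster 2 took in 173 of 176 control and 113 of 114 exposed cycling cells, as well as 341 of 345 and 212 of 214 non-cycling ones. Cluster 2 is broad, with 36.8% of all control and 35.7% of all exposed cells, so it does not single out progenitors. Summed markers of other cell types differed in level. The 8 markers of the differentiating nephron, with Lhx1 at 0 by the rule, summed to 666 and 804 CPM in cycling cells. Outside the gate they summed to 529 and 617 CPM. Among the remaining lists, the 8 markers of the loop of Henle and distal tubule stood highest at 434 and 334 CPM. The 9 podocyte markers stood at 241 and 200 CPM. Outside the gate these lists stood at 4956 and 4155 CPM and at 1172 and 1324 CPM. The 8 endothelial markers summed to 37.8 and 49.98 CPM (UMIs per 1000000 UMIs of the gate) with Kdr and Flt1 at 0 in both libraries. The 9 macrophage and neutrophil markers summed to 12.6 and 3.19 CPM with Ptprc at 0, and the 11 stromal markers to 110 and 56.4 CPM.

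The rule's own genes describe the cells and are not evidence about them. Uncx, a homeobox factor of the progenitors, stood at 291 CPM in control and 298 CPM in exposed cycling cells, and Eya1, a co-factor of Six2, at 103 and 113 CPM. The mitotic genes of the rule ranged from Ube2c, the ubiquitin-conjugating enzyme of the anaphase-promoting complex, at 909 and 627 CPM, to Nusap1, a spindle protein, at 159 and 130 CPM. Detection of progenitor genes in other cells is given beside these levels. In cells defined by endothelial markers (median 2537 control and 3126 exposed UMIs) Six2 was detected in 0.432% and 0.212% and Cited1 in 0.288% and 1.06%. Meox1, a homeobox gene, was the exception at 18.3% and 27.4% of those cells, against 30.1% and 37.7% of the deeper cycling progenitors. At 3000 UMIs the Meox1 shares were 16.6% and 26.5% of endothelial marker cells and 18.2% and 21.2% of cycling progenitors. Its detection therefore does not set cycling progenitors apart from endothelial marker cells. The source of Meox1 UMIs in the endothelial marker cells was not tested.

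Most progenitors held no cycle gene or few, and the others spread over all numbers up to 8. In the control 241 of 521 gate cells held none, 32 held 2, 20 held 3 and 32 held all 8. In the exposed library 141 of 328 held none, 16 held 2, 24 held 3 and 26 held all 8. Cells just inside the threshold, with 3 cycle genes, carried 5495 CPM of a list of G2/M genes outside the rule in control and 6023 CPM in exposed cells. Cells just outside, with 2 cycle genes, carried 4121 and 3644 CPM. On the progenitor side, cycling cells with exactly 3 of the 7 genes (55 control and 32 exposed cells) carried 510 and 243 CPM of Cited1, and cells with 2 that met the other criteria (56 and 45 cells) carried 173 and 107 CPM.

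**Figure D1:**
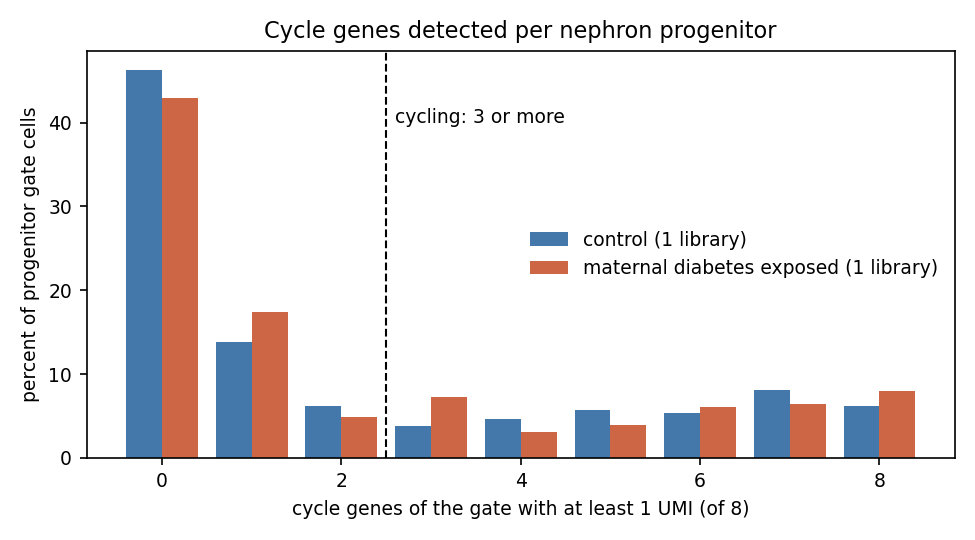
Percent of progenitor gate cells (y axis) by the number of the 8 cycle genes of the rule with at least 1 UMI (x axis), for the control library (521 cells) and the exposed library (328 cells), with a dashed line at the threshold of 3. In both libraries over 40% of cells held none, and the cells with 3 or more spread over all numbers up to 8.

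Cycling progenitors made up 1.94% of control cells (176 of 9071, 1.67 to 2.25) and 2.07% of exposed cells (114 of 5494, 1.71 to 2.49). The difference of 0.135 percentage points (Newcombe interval -0.326 to 0.624) was within counting error. Within the progenitor gate the cycling share was 33.8% of the control (29.7 to 38.02) and 34.8% of the exposed library, a difference of 0.975 points (-5.50 to 7.58). An interval of this width does not show that the shares are alike.

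Depth moved with the cycling call. Among gate cells with 1000 to 4000 UMIs 10.9% of control and 14.6% of exposed cells were cycling, and at 9000 UMIs or more the share was 72.7% (32 of 44) in both. Between 4000 and 6000 UMIs the share was 27.6% of control cells (51 of 185, 21.3 to 34.6) and 11.6% of exposed cells (17 of 147, 6.88 to 17.9), and these intervals did not overlap. Between 6000 and 9000 UMIs it was 67.0% of control (57.3 to 75.7) and 61.5% of exposed cells (51.0 to 71.2). The intervals overlapped there and in the remaining bands, so the gap was confined to a single band. With every cell thinned at random to 3000 UMIs, cycling cells were 26.7% of the control gate (96 of 359) and 25% of the exposed gate (51 of 204), a difference of -1.74 points (-9.00 to 5.95). At that depth cycling progenitors were 1.78% of control and 1.25% of exposed cells, a difference of -0.524 points (-1.01 to -0.0196). Thinning left out shallower cells, and 59.5% of control and 74.1% of exposed cells remained, so these denominators differ in makeup. The rule was applied anew to the thinned counts. Cells that lost their Lhx1 UMIs could therefore enter the thinned gate, and cells left with too few progenitor genes dropped out of it. Outside the progenitor gate, cells with 3 or more cycle genes were 23.5% of control and 19.3% of exposed cells after thinning, and 16.3% and 17.3% before it.

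Cells that met the progenitor criteria but held Lhx1 had cycle genes more often than the gate itself, before and after thinning. Of these, 76.7% in the control (92 of 120) and 73.1% among exposed cells (57 of 78) had 3 or more cycle genes. They were deep, with medians of 9612.5 and 9466 UMIs among those with cycle genes. Of cells that still held Lhx1 after thinning, 50% in the control (16 of 32, 31.9 to 68.1) had 3 or more cycle genes. Among exposed cells the share was 56.25% (9 of 16, 29.9 to 80.2). The thinned gate itself had 26.7% (22.2 to 31.6) and 25% (19.2 to 31.5), and the exposed intervals overlapped.

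Cells with and without Six2, the factor that holds progenitors in self-renewal, were then compared at equal depth. After thinning, 33.9% of control gate cells with Six2 were cycling (60 of 177, 27.0 to 41.4) against 19.8% of those without (36 of 182, 14.3 to 26.3), and the intervals did not overlap. Among exposed cells the shares were 22.1% (21 of 95, 14.2 to 31.8) and 27.5% (30 of 109, 19.4 to 36.9), with overlapping intervals. Six2 is one of the genes of the rule, so these shares are a description. For Wnt4, the signal that starts epithelial conversion, 27.6% of control cells with it and 26.3% without it were cycling, and the exposed shares were 29.6% and 20.8%, again with overlapping intervals.

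Cycling progenitors carried far more transcripts of the mitotic machinery than non-cycling ones in both libraries. The rule chose the cells by genes of this program, so the values are a description. Of 5410 genes with at least 100 UMIs, 130 were at least 2-fold higher in cycling cells of both libraries on the log2 scale with 10 CPM added, which is 2.4% of the genes compared, and 1 was at least 2-fold lower (0.0185%). Of the list of 75 G2/M genes outside the rule, 57 were compared, and 54 of these were past 2-fold higher, with median log2 ratios of 2.39 (control) and 2.45 (exposed), beside medians of 0.07 and 0.05 over all genes. The list of spindle and kinetochore genes gave 33 of 34 past 2-fold, with medians of 2.44 and 2.40.

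Among the genes with the highest ratios were regulators of mitotic exit. Ccnb1, the cyclin partner of Cdk1, stood at 187 CPM in control and 137 CPM in exposed cycling cells, against 3.88 and 3.47 CPM in non-cycling ones. Cdc20, the activator of the anaphase-promoting complex, stood at 238 and 180 CPM against 14.2 and 12.1 CPM. Ccna2, the cyclin of S and G2 phases, stood at 132 and 145 CPM against 6.46 and 6.07 CPM. The non-cycling values of these cyclins rest on 10 or fewer UMIs per library.

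Kinetochore and cytokinesis genes were among them too. Cenpa, the histone variant of centromeres, stood at 403 and 307 CPM in cycling cells against 36.8 and 25.1 CPM. Spc25 and Spc24, subunits of the NDC80 complex that binds microtubules, stood at 208 and 164 CPM and at 244 and 246 CPM against 12.1 to 27.7 CPM in non-cycling cells. Cdca8 and Aurkb, parts of the chromosomal passenger complex, and Prc1 and Racgap1, which build the central spindle, had log2 ratios from 2.68 to 3.26 in both libraries. Others among the 20 highest were Cdca3, 1190002F15Rik, Neil3, Pbk, 2810417H13Rik, Hmmr, Fam64a, Hist1h1b and Cks2.

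S phase genes were higher by less. Of 44 compared, 41 were higher in cycling cells of both libraries (41.9% of all genes were), 8 were past 2-fold, and the median log2 ratios were 0.71 and 0.85. Tyms, which makes thymidylate, stood at 192 and 198 CPM against 42.0 and 40.7 CPM, and Rrm2, a subunit of ribonucleotide reductase, at 137 and 173 CPM against 36.8 and 21.7 CPM. Ung, a uracil glycosylase on the same list, went the other way, at 38.7 and 70.2 CPM against 71.7 and 76.3 CPM. Cdkn2d, an inhibitor of Cdk4 and Cdk6, was also higher in cycling cells, at 49.6 and 60.6 CPM against 13.6 and 17.3 CPM.

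Genes of cholesterol synthesis were higher in cycling cells too. Of 12 compared, 11 were higher in both libraries (41.9% of all genes were) and none was lower in both, with median log2 ratios of 0.56 and 0.83. Msmo1, a sterol oxidase, stood at 79.8 and 105 CPM against 29.7 and 45.9 CPM. Sqle, squalene epoxidase, stood at 39.5 and 67.0 CPM against 18.1 and 21.7 CPM.

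Cytosolic ribosomal protein genes were lower as shares of the transcriptome in 49 of 50 cases (24.6% of all genes were lower in both libraries), with medians of -0.21 and -0.25. Heat shock genes were lower in 12 of 20 and immediate early genes in 13 of 25. The 1 gene past 2-fold lower was Gnb5, a G protein subunit, at 10.9 and 7.44 CPM against 33.6 and 29.5 CPM, on 13 and 7 UMIs in the cycling cells. Aldoa, an enzyme of glycolysis, stood at 118 and 129 CPM against 251 and 253 CPM, while Pgk1 of the same pathway stood at 222 and 236 CPM against 177 and 206 CPM. Lbp, Ddit3, Maff and Il33 were also among the 12 lowest, with log2 ratios between -1.07 and -0.71. Since CPM are shares of a total, a gain by one group of genes lowers the share of others, and these levels do not count transcripts per cell.

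Progenitor genes differed in direction. Cited1, a transcriptional co-regulator of the uninduced progenitor, was lower in cycling cells, at 708 CPM (661 to 757, exact Poisson interval) in control and 531 CPM (485 to 579) in exposed cells against 950 (902 to 1000) and 807 CPM (756 to 860). Meox1, Crym and Spock2 were lower in both libraries as well, with ratios from 0.544 to 0.752. Six2 was higher in cycling cells of the control at 220 CPM (194 to 249) against 176 CPM, and lower in those of the exposed library at 132 CPM (110 to 157) against 177 CPM. Cited1, Meox1, Crym, Spock2 and Six2 belong to the rule, and non-cycling cells were shallower. Their values therefore also reflect which cells were let in and are a description. In thinned cells Cited1 was detected in 64.8% of control cycling cells (57.0 to 72.1) and 79.8% of non-cycling ones (74.9 to 84.2). Among exposed cells the shares were 67.3% (57.8 to 75.8) and 68.6% (61.8 to 74.9), with overlapping intervals. Wnt4 was higher in cycling cells of both libraries, at 392 and 412 CPM against 248 and 356 CPM. The list of early nephron differentiation genes had 10 of 16 higher in both libraries and 1 lower, with medians of 0.24 and 0.26, and the list of other progenitor genes had 5 of 19 higher and 4 lower. Over all genes compared, 41.9% were higher in both libraries and 24.6% were lower in both. In Wnt4 the larger gap lay in the control, where the ratio of cycling to non-cycling cells was 1.58 (1.38 to 1.81, exact conditional binomial interval), against 1.16 (1.00 to 1.33) in the exposed library.

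Ordered by the number of cycle genes, progenitors had their highest S phase level in the middle groups and their highest mitotic level at the end. The S phase list summed to 2089 CPM in control cells with none of the 8 genes, 4089 with 1 to 2, 5908 with 3 to 4, 5530 with 5 to 6 and 3735 with 7 to 8. Exposed cells gave 2414, 3483, 5842, 6742 and 4463 CPM. The G2/M list was higher at each step, from 1446 to 15266 CPM (control) and from 1412 to 13314 CPM (exposed). The order was made from genes of the mitotic program, so the course of both lists along it is a description. Mcm6, a helicase subunit, peaked at 222 and 239 CPM in cells with 3 to 4 cycle genes and stood at 72.9 and 94.5 CPM in cells with 7 to 8. Cited1 went from 970 to 667 CPM (control) and from 867 to 473 CPM (exposed) between the ends of this order. Cited1 is a gene of the rule, so its levels also reflect which cells were let in. Median depth also climbed along the order, from 3906 to 7302 UMIs (control) and from 5084 to 9192 (exposed).

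**Figure D2:**
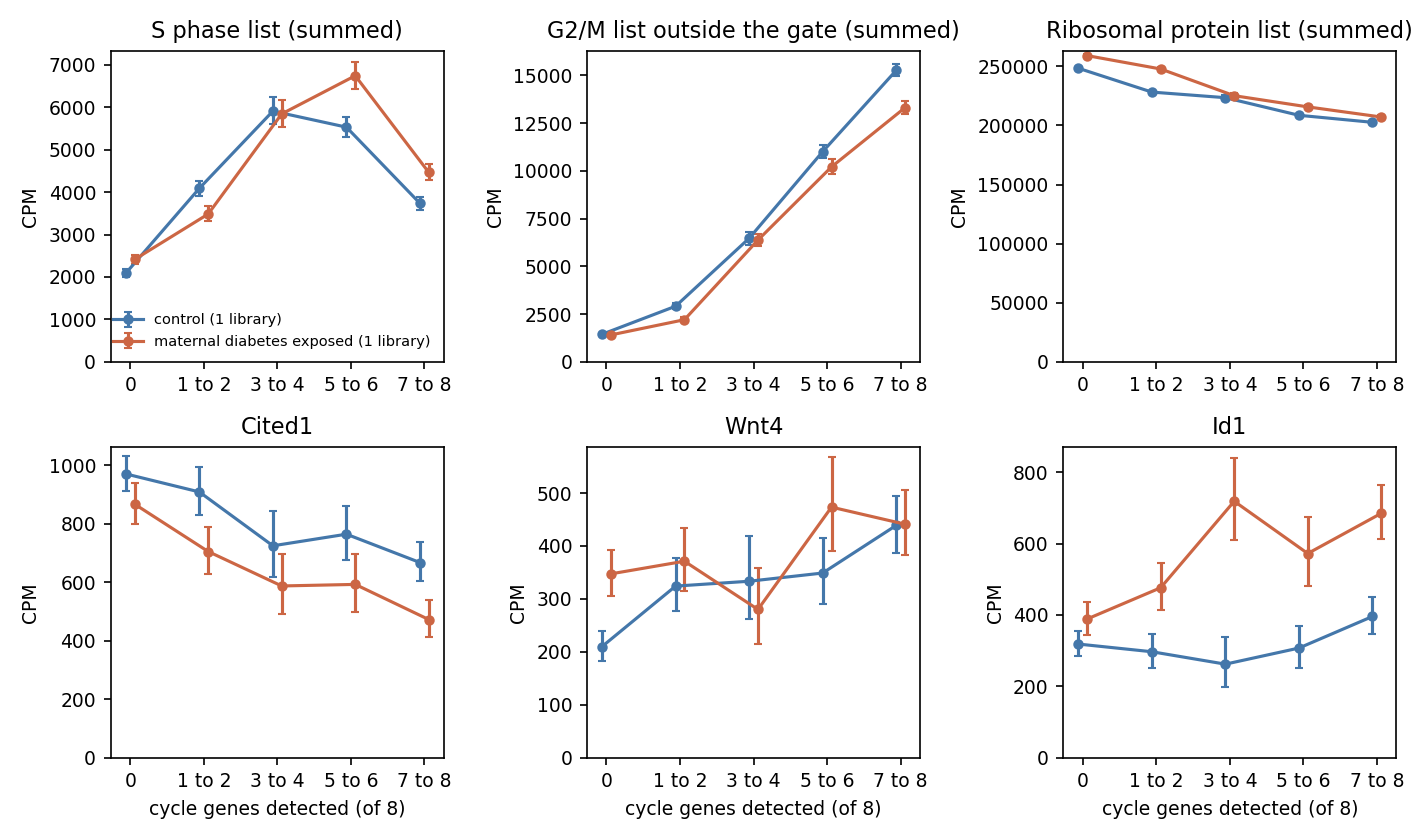
Level in CPM (y axes, from 0) of 3 summed gene lists and of Cited1, Wnt4 and Id1 in progenitor gate cells grouped by the number of cycle genes detected (x axes), for the control and the exposed library, with exact Poisson 95% intervals for counting error. The S phase list is highest in the middle groups, the G2/M list climbs to 15266 and 13314 CPM, the ribosomal list and Cited1 decline, and Id1 lies higher in exposed cells in every group, by most at 3 to 4 cycle genes (262 and 718 CPM).

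Counted in single cells at 3000 UMIs, cycling progenitors held a median of 10 S phase and 19 G2/M genes (control) and 12 and 18 (exposed), against 5 S phase and 4 or 3 G2/M genes in non-cycling cells. More G2/M than S phase genes were held by 70.3% of control (116 of 165) and 62.8% of exposed cycling cells (71 of 113), a difference of -7.47 points (-18.7 to 3.67). More S phase than G2/M genes were held by 24.2% (40 of 165) and 34.5% (39 of 113), a difference of 10.3 points (-0.505 to 21.2). Both intervals include 0. The G2/M list is longer, at 70 genes against 47, and the rule chose the cells by mitotic genes. These shares are therefore a description and do not measure the fraction of cells in a phase. Cells within 1 gene of the dividing line made up 9.70% and 7.08%. Non-cycling cells with at least 5 S phase and at most 4 G2/M genes made up 33.9% of that gate in the control (104 of 307) and 42.2% among exposed cells (86 of 204).

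**Figure D3:**
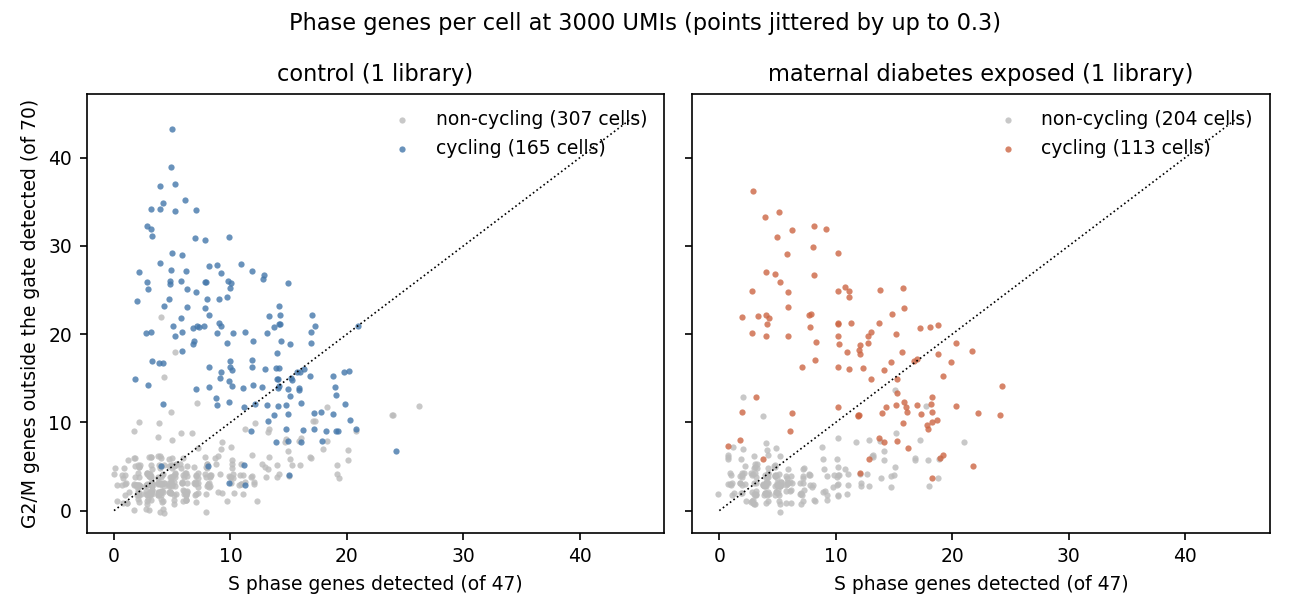
Each point is 1 progenitor thinned to 3000 UMIs, placed by the number of S phase genes (x axis, of 47) and of G2/M genes outside the rule (y axis, of 70) detected in it, jittered by up to 0.3, with cycling cells in color, non-cycling cells in grey and a dotted line at equal numbers. Cycling cells form a band from many S phase and few G2/M genes to few S phase and many G2/M genes, and 116 of 165 control and 71 of 113 exposed cells lie above the line. The lists differ in length, so the line is no border between phases.

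Many promoters of the genes that marked cycling cells hold short sequences that the rule did not use. Promoters of genes transcribed in G2 and M phases are known for the CHR (cell cycle genes homology region), often with CCAAT boxes upstream, and promoters of S phase genes for E2F sites. The windows were those of RefSeq on GRCm38.p6, from 250 bases before to 50 after a gene's start, 300 bases in all, and both strands were searched for TTTGAA or TTCGAA (CHR), CCAAT, and TTTGGCGC or TTTCGCGC (E2F). The promoters of Ube2c, Cenpf, Cdc20 and Mcm5 are shown to make the motifs visible. Ube2c and Cenpf are cycle genes of the rule, so their higher level in cycling cells was set by it. Cdc20 lies outside the rule and was at least 2-fold higher in cycling cells of both libraries. Mcm5 is a helicase gene of the S phase list. Motif matches are in capitals (CHR and CCAAT in the first 3, E2F in the last).

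Ube2c: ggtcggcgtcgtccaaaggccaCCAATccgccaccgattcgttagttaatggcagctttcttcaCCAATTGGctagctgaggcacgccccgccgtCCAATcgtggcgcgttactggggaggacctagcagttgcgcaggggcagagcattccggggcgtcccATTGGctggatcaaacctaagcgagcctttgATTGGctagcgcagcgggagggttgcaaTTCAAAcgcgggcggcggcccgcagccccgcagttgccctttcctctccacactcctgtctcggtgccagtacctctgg
Cenpf: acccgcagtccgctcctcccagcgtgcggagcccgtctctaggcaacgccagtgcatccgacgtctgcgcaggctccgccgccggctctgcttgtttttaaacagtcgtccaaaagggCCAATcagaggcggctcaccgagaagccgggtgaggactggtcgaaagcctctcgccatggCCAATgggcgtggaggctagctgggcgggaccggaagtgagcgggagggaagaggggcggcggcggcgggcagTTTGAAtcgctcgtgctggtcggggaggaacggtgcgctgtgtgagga
Cdc20: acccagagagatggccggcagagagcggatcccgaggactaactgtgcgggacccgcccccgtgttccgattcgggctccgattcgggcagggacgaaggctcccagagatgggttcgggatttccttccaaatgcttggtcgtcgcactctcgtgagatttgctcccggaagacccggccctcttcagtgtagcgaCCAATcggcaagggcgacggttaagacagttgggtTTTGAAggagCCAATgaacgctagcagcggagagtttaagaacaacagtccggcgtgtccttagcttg
Mcm5: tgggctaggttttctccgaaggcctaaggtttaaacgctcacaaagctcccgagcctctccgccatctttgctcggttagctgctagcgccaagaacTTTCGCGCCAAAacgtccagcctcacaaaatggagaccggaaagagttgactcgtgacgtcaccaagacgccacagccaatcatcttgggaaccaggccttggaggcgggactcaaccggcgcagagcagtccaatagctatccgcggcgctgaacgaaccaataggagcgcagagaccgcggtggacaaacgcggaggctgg

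The windows lie at chr2:164769679-164769978 (plus strand) for Ube2c, chr1:189688037-189688336 (minus strand) for Cenpf, chr4:118437294-118437593 (minus strand) for Cdc20 and chr8:75109259-75109558 (plus strand) for Mcm5, and each is printed 5′ to 3′ on the strand of its gene. The CHR of Ube2c reads TTCAAA, the other strand of TTTGAA. In Ube2c a CCAAT and an ATTGG overlap, and the E2F matches of Mcm5 overlap on opposite strands. The Mcm5 window also holds CCAAT, which is not marked there.

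A CHR was found in 77.3% of the promoters of the G2/M list (51 of 66 windows, from 60 of 75 genes matched by symbol) and in 57.7% of those of the genes past 2-fold (60 of 104 windows, from 94 of 130 genes). It was found in 13.3% of those of the S phase list (6 of 45), 14.0% of those of all genes compared (745 of 5334) and 19.2% of all windows (6316 of 32851). CCAAT with or without a CHR differed less, at 78.8% of the G2/M list, 55.6% of the S phase list, 38.2% of all genes compared and 37.4% of all windows. CHR and CCAAT together were in 66.7% of the G2/M list, 11.1% of the S phase list, 5.85% of all genes compared and 7.52% of all windows. An E2F match was in 24.4% of the S phase list (11 of 45), 3.03% of the G2/M list, 1.99% of all genes compared and 0.813% of all windows. Among windows of the genes past 2-fold, CCAAT was in 67.3%, CHR and CCAAT together in 44.2% and an E2F match in 5.77%. A match of letters is a description of the window and shows no binding.

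Between the libraries, cycling progenitors of the exposed kidney held higher levels of S phase, heat shock, immediate early and cholesterol synthesis genes and lower levels of mitotic and mitochondrially encoded genes. Of 3003 genes that reached 100 UMIs, 38 were past 1.5-fold higher in the exposed library (1.27%) and 38 past 1.5-fold lower (1.27%), together 2.53%, on the same log2 scale. The median over all genes was -0.00, and 49.4% of genes lay above 0. These are differences between 2 libraries, and animal and preparation cannot be told apart from the exposure.

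Of 38 S phase genes, 31 were higher in exposed cells (median log2 ratio 0.14), and 2 were past 1.5-fold. Mcm5, a subunit of the MCM helicase, stood at 48.7 CPM in control and 79.8 CPM in exposed cells (ratio 1.64, 1.15 to 2.35). Ung stood at 38.7 and 70.2 CPM, and Tk1, thymidine kinase, at 43.7 and 67.0 CPM. Ccnd1, the cyclin of G1, stood at 124 and 186 CPM (ratio 1.51, 1.20 to 1.89), while in non-cycling cells it stood at 85.3 and 74.5 CPM. Rfc2, a loader of the clamp, went against the list at 117 and 90.4 CPM. In non-cycling cells 20 of 31 S phase genes were higher, with a median of 0.06.

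Of 54 G2/M genes outside the rule, 44 were lower in exposed cells (median -0.16; 50.6% of all genes lay below 0) and 3 were past 1.5-fold lower. Cenpe, a kinetochore motor, stood at 130 CPM in control and 70.2 CPM in exposed cells (ratio 0.539, 0.398 to 0.723). Kif15, a spindle motor, stood at 100 and 62.7 CPM, and Racgap1 and Ect2, which position the cleavage furrow, at 140 and 92.5 CPM and at 77.3 and 47.9 CPM. Kif22 and Aurkb went against the list, at 72.3 and 82.9 CPM and at 104 and 116 CPM. Summed, the list stood at 0.884 times the control level (0.862 to 0.906) and the S phase list at 1.15 times (1.10 to 1.19). With cells that held Lhx1 kept in the gate the G2/M median was -0.05 and the S phase median 0.08, and with any hybrid score kept the G2/M median was -0.03.

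Heat shock genes were higher in 16 of 18 cases (median 0.32), and in non-cycling cells also in 16 of 18 (median 0.30). Hspa1a and Hspa1b, inducible HSP70 genes, stood at 3057 and 4400.2 CPM and at 1401 and 2215 CPM in control and exposed cycling cells. Immediate early genes were higher in 11 of 16 with a median of 0.24. Jun stood at 1008 and 1532 CPM and Fos at 999 and 1413 CPM, while Nr4a1, a nuclear receptor of this class, stood at 86.6 and 57.4 CPM. Mitochondrially encoded genes were lower in 11 of 12 (median -0.34), and in 12 of 12 non-cycling cases (median -0.56). The mitochondrial share was also lower over all exposed cells, as given above, and its part in these values was not tested.

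**Figure D4:**
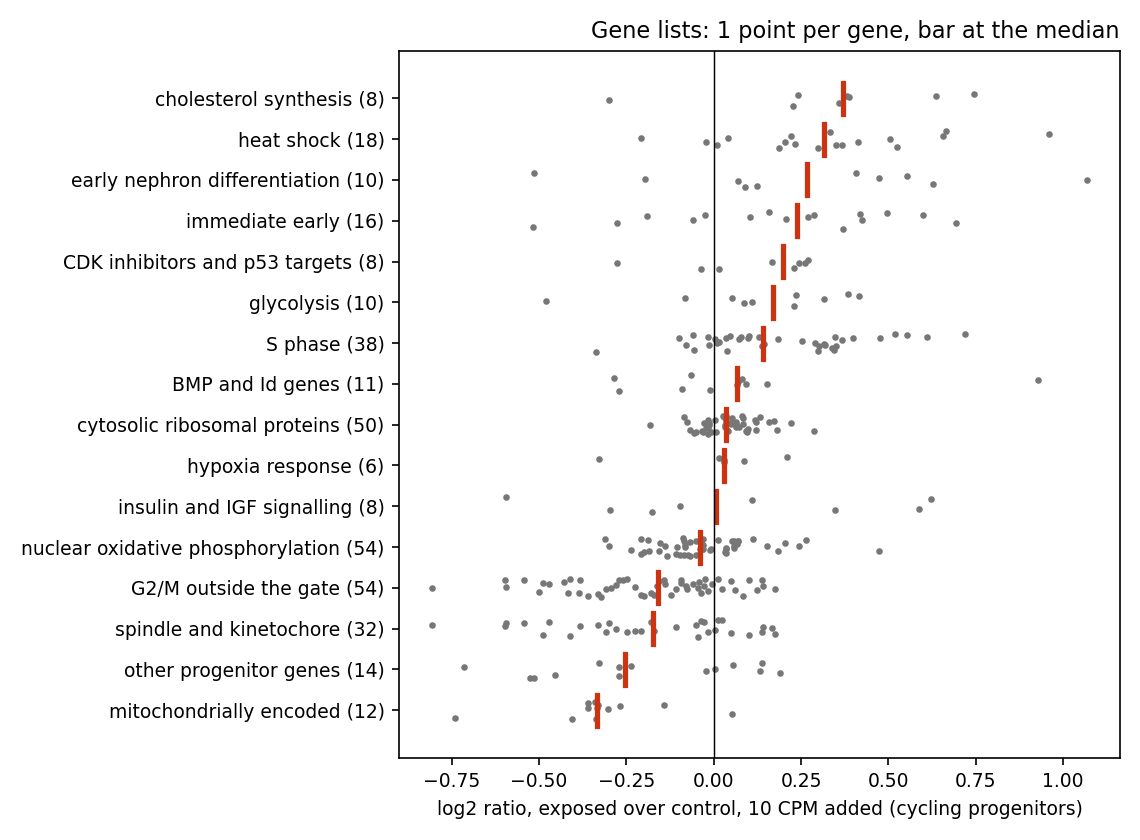
Log2 ratio of exposed over control level in cycling progenitors with 10 CPM added (x axis) for the genes of each list with at least 100 UMIs (number in brackets), 1 point per gene with a red bar at the list's median, for lists with at least 5 such genes. The medians run from -0.34 for mitochondrially encoded genes to 0.37 for cholesterol synthesis, and points of most lists lie on both sides of 0.

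Cholesterol synthesis genes were higher in 7 of 8 with a median of 0.37. Hmgcs1, which makes the precursor of mevalonate, stood at 79.0 CPM in control and 139 CPM in exposed cells (ratio 1.76, 1.34 to 2.32), and at 52.3 and 58.1 CPM in non-cycling cells. Sqle stood at 39.5 and 67.0 CPM, while Acat2 stood at 52.1 and 40.4 CPM. Scd2, which desaturates fatty acids and is not on the list, was lower at 108 and 55.3 CPM. Glycolysis genes were higher in 8 of 10 with a median of 0.17, among them Pgam1 at 273 and 368 CPM. Ribosomal protein genes differed little, with 33 of 50 higher and a median of 0.04, and so did nuclear genes of oxidative phosphorylation, with 35 of 54 lower and a median of -0.04. Of 8 measured CDK inhibitor and p53 target genes 6 were higher with a median of 0.20, and none was past 1.5-fold. Hypoxia genes (6 measured, median 0.03), insulin and IGF signalling genes (8, median 0.01) and BMP and Id genes (11, median 0.07) had medians close to that of all genes in this setting. Over the alternatives their medians ran from -0.04 to 0.09, from -0.23 to 0.04 and from -0.06 to 0.10, on both sides of 0.

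Progenitor genes outside the rule were more often lower than higher in exposed cycling cells, and those of the rule went both ways. Of 14 other progenitor genes 9 were lower with a median of -0.25, against 6 of 16 lower and a median of 0.01 in non-cycling cells. Over the alternatives the median ran from -0.27 to 0.03, and it was above 0 with at least 300 UMIs required. Robo2, the receptor that limits where Gdnf is made, stood at 106 CPM in control and 60.6 CPM in exposed cells (ratio 0.572, 0.411 to 0.789). Sall1, a partner of Six2 in renewal, stood at 84.9 and 56.4 CPM, and Itga8, an integrin needed for bud outgrowth, at 94.1 and 65.9 CPM. Wt1 stood at 392 and 311 CPM (ratio 0.791, 0.681 to 0.918), and Hoxd11 went the other way at 175 and 194 CPM. Six2 stood at 220 and 132 CPM in cycling cells (ratio 0.599, 0.480 to 0.744) and at 176 and 177 CPM in non-cycling cells (ratio 1.00, 0.832 to 1.21). The share of cycling cells with Six2 at 3000 UMIs was 47.3% for the control (39.5 to 55.2) and 31.9% for exposed cells (23.4 to 41.3). Cited1 stood at 708 and 531 CPM in cycling and at 950 and 807 CPM in non-cycling cells, with ratios of 0.750 (0.670 to 0.839) and 0.850 (0.782 to 0.923). Spock2 was also lower, at 165 and 130 CPM, while Uncx (291 and 298 CPM), Eya1 (103 and 113 CPM), Crym (104 and 108 CPM) and Meox1 (68.9 and 73.4 CPM) had higher point values in exposed cells, so 4 of the 7 genes lay above the control. These genes belong to the rule, so these values also reflect which cells were let in.

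Early nephron differentiation genes were higher in 8 of 10 with a median of 0.27, and 2 were past 1.5-fold. The median was 0.08 with Lhx1 cells kept and 0.01 over all members without the filter on counts. Jag1, the Notch ligand of the renal vesicle, stood at 41.2 and 69.1 CPM (ratio 1.68, 1.14 to 2.48), and Pax8 at 97.5 and 139 CPM (ratio 1.43, 1.10 to 1.85). Hey1, a Notch target, went against the list at 147 and 100 CPM. Cdh6, a cadherin of the early tubule, stood at 30.3 and 74.4 CPM, but 32 of its 70 exposed UMIs came from 1 cell. Wnt4 was 392 and 412 CPM in cycling cells (ratio 1.05, 0.916 to 1.21), and in non-cycling cells 248 and 356 CPM (ratio 1.44, 1.25 to 1.65). Markers of the differentiating nephron other than Lhx1 were detected, at least 3 per cell, in 27.3% of control (20.8 to 34.5) and 35.1% of exposed cycling cells (26.4 to 44.6). These intervals overlap, and the exposed cells were deeper. Outside the gate, where Lhx1 could count, the shares were 13.9% and 17.6%.

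Id1, an inhibitor of helix-loop-helix factors and a target of BMP signalling, had the highest log2 ratio (0.93) after Ly6a, Cdh6 and Cryab, in which few cells held most UMIs. It lies on chr2:152736251-152737410 (GRCm38, GENCODE M21) and stood at 344 CPM in control (409 UMIs) and 664 CPM in exposed cycling cells (624 UMIs), a ratio of 1.93 (1.70 to 2.19). In non-cycling cells the levels were 311 and 421 CPM (ratio 1.35, 1.19 to 1.54). It was detected in 54.5% of control and 69.9% of exposed cycling cells at 3000 UMIs, and its log2 ratio stayed between 0.58 and 1.02 over all alternatives. Without the 3% of cells with most of its UMIs the log2 ratio was 0.91. Its relative Id3 stood at 1393 and 1549 CPM.

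Of the other genes with the highest ratios, several rested on single cells. Ly6a, a surface protein, had 10 control and 145 exposed UMIs, 131 of them in 1 cell, and Cryab, a small heat shock protein, had 74.7% of its exposed UMIs in the 3 cells that held most. Hrsp12 had 53.7% of its exposed UMIs in 3 cells, and its log2 ratio of 0.88 was 0.27 without the 3% of cells with most UMIs. Hadha of fatty acid oxidation, Ung, Cdc16 of the anaphase-promoting complex, Hmgcs1, Mrps6, Gm26917 and Tmem109 had ratios from 1.68 to 2.05 and kept log2 ratios of 0.62 or more without those cells. With Lhx1 cells kept, Ung was at 0.34 and Cdc16 at 0.28, and thinned to 3000 UMIs Tmem109 was at 0.07.

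Most genes with the lowest ratios were spread over many cells. Tagln, an actin-binding protein, stood at 102 and 23.4 CPM in cycling cells (ratio 0.230, 0.139 to 0.364) and at 87.2 and 47.7 CPM in non-cycling cells. Its log2 ratio of -1.74 was -0.02 with 2 progenitor genes required in place of 3. It is among the genes best known from smooth muscle, and the 8 markers of smooth muscle, pericytes and renin cells summed to 174 and 107 CPM, with Myh11 at 0 in cycling cells of both libraries. Their part was not tested. Vcl, vinculin of cell adhesions, stood at 102 and 44.7 CPM, and Tead1, the DNA-binding partner of the Hippo effector Yap1, at 107 and 49.98 CPM in cycling cells but 68.5 and 71.1 CPM in non-cycling cells. Stat3 stood at 77.3 and 40.4 CPM and Slc12a2, a chloride co-transporter, at 156 and 88.3 CPM. Enc1, Armc1, Ccdc50, Cnot6, Scd2 and Cenpe had ratios from 0.510 to 0.566. S100g, a calcium-binding protein, had over 80% of its UMIs in the 5 control and 3 exposed cells that held most.

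**Figure D5:**
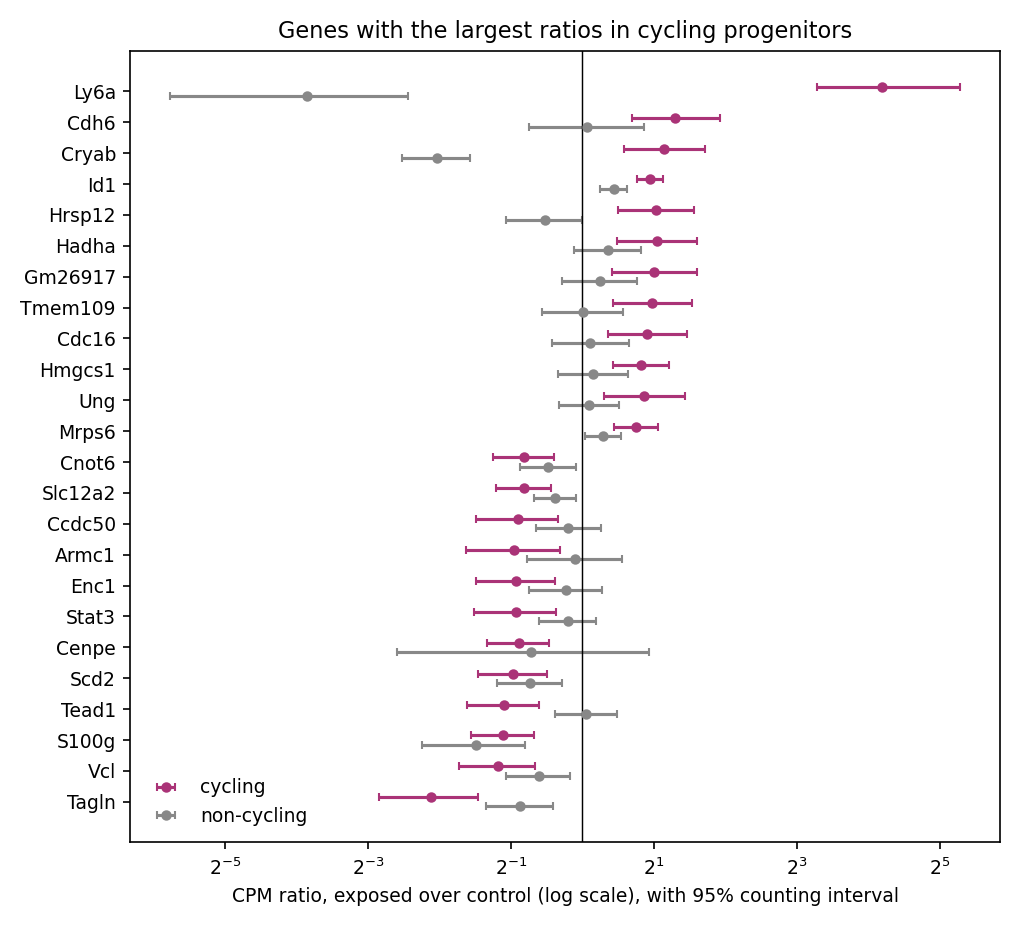
Ratio of exposed over control CPM (x axis, log scale) for the 12 genes with the highest and the 12 with the lowest log2 ratio in cycling progenitors (y axis), with exact conditional binomial 95% intervals for counting error, in cycling and in non-cycling cells. Id1 lies above 1 in both kinds of cell, Tead1 lies below 1 in cycling cells (0.468) and near 1 in non-cycling cells (1.04), and Ly6a and Cryab lie on opposite sides of 1.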

How the data were processed

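Single-cell RNA sequencing libraries of whole kidney, 1 control and 1 exposed to maternal diabetes, were used as deposited. The deposited matrices hold raw UMI counts for each gene in each cell. Per the file headers, the authors also recorded the percent of UMIs from mitochondrial genes. The hybrid doublet score and an unnamed cluster number came from the authors as well. Libraries were made with the Chromium 3′ v2 kit, per the labels' protocols, and the submitters' processing notes name Cell Ranger 2.2.0 and mm10, which is GRCm38. The choice of cells and genes is not stated in these sources. The deposited cells had 935 to 52013 UMIs in the control and 1172 to 52566 in the exposed library over the shared genes, which carry 99.4% of each library's UMIs. All values come from 1 library per group.

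Cells were gated on detected UMIs as the report states. Doublets were treated only through the authors' hybrid score. UMIs were summed per gene, gate and library and divided by the gate's total over the 8930 shared genes (CPM). Log2 ratios were taken after 10 CPM were added, which understates the change of low genes, and a gene needed 100 UMIs over the groups compared. Calls were 1.5-fold between libraries and 2-fold in both libraries between gates. Shares have Clopper-Pearson intervals, differences of shares Newcombe intervals, sums Poisson and ratios exact conditional binomial intervals, all at 95%. They cover counting error only, treat UMIs as independent, and understate the error of genes whose UMIs sit in few cells. Cells were thinned to 3000 UMIs with a fixed seed where shares were compared across depths.

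The members, gene lists and markers were chosen with earlier results of these data known. Named genes are the genes of the gate and its markers, the 20 highest and 12 lowest between gates, the 12 highest and 12 lowest between libraries, up to 4 per list with up to 2 against its direction, and the 8 whose ratio differed most between gates. Promoter windows came from RefSeq (GRCm38.p6) and positions from GENCODE M21. Gene symbols were matched to GENCODE for 8606 names and to RefSeq for 307, and 17 were kept as deposited. Scripts ran on Python 3.11.15 with numpy 2.4.6, scipy 1.17.1, pandas 2.3.3 and matplotlib 3.10.9 and were tested on simulated data. Alternatives changed the gate, depth, filters, scaling and added CPM.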

Additional observations from a re-analysis of the deposited data

Results flagged for a closer look

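In each of these genes the exposed and control libraries differed in opposite directions in the 2 gates, or the 2 gates differed in opposite directions in the 2 libraries, with counting intervals on opposite sides of 1. With 1 library per group, the difference between the ratios was not tested.

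Six2 had a ratio of cycling to non-cycling cells of 1.25 (1.05 to 1.48) for the control and 0.746 (0.592 to 0.937) for exposed cells, with no more than 8 of its UMIs in any cycling cell. Six2 is a gene of the rule, so its ratios also reflect which cells were let in and are a description. Rrm2 had an exposed to control ratio of 1.27 (1.01 to 1.58) in cycling and 0.588 (0.352 to 0.957) in non-cycling cells. Rab11a, a small GTPase of recycling endosomes, had a ratio of cycling to non-cycling cells of 0.661 among control and 1.49 among exposed cells. Hspa1b had 0.908 and 1.07, and mt-Nd1, a mitochondrially encoded subunit of complex I, 0.846 and 1.09.

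In the remaining genes few cells held a large share of the UMIs. Ly6a had an exposed to control ratio of 18.3 in cycling and 0.0688 in non-cycling cells, and a ratio of cycling to non-cycling cells of 0.167 for control and 44.5 for exposed cells. Cryab had exposed to control ratios of 2.21 and 0.244 in the 2 gates, and ratios of cycling to non-cycling cells of 0.221 and 2.00 in the 2 libraries. Atp1b1, a sodium pump subunit, had exposed to control ratios of 1.64 in cycling and 0.615 in non-cycling cells, with 45.9% of its control and 45.6% of its exposed cycling UMIs in the top 3% of cells. Igfbp7 had 1.56 and 0.352, with 84.3% of its exposed cycling UMIs in the top 3% of cells.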

How the results depend on the processing

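No paired analysis was possible because the labels give no shared replicate numbers and each group is 1 library. The exposed minus control share of cycling progenitors among all cells went from 0.135 to -0.524 points with cells thinned to 3000 UMIs, where the cells left out differ between libraries. In the other 9 alternatives it lay within the main interval, as did the cycling share of the gate in all 10. The 2 alternatives that leave out the 3% of cells with most UMIs of a gene, or thin the exposed library to the control's median depth, were chosen after the data were seen, and the first trims cycling cells alone, so it gives no count between gates. Of the 38 genes past 1.5-fold higher in the exposed library, the count became 23 with at least 2 cycle genes, 14 with Lhx1 cells kept, 25 with any hybrid score, 17 with cells thinned to 3000 UMIs, 87 with at least 50 UMIs, 9 with at least 300 UMIs, 263 with no filter and 8 with 50 CPM added. The 38 past 1.5-fold lower became 15 with thinned cells, 117 with at least 50 UMIs, 4 with at least 300, 237 with no filter, 61 with 1 CPM added and 6 with 50 CPM added. The 130 genes past 2-fold higher in cycling cells became 40 with thinned cells, 43 with at least 300 UMIs and 61 with 50 CPM added. The 1 gene past 2-fold lower became 6 with at least 2 progenitor genes, 0 with at least 2 cycle genes, 7 with Lhx1 cells kept, 0 with any hybrid score, 2 with thinned cells, 0 without cells with 3 markers of another type, 2 with the exposed library thinned, 0 with at least 300 UMIs, 5 with 1 CPM added and 0 with 50 CPM added. Fewer or more genes entered under the UMI filters and the thinned depth; for the other settings the cause was not tested. The S phase, G2/M, heat shock, immediate early, cholesterol synthesis, mitochondrially encoded and early differentiation medians kept their sign in every alternative run, the last with values from 0.00521 to 0.31. The BMP and Id median turned to -0.0627 with 2 progenitor genes, -0.0263 with 2 cycle genes, -0.0308 with Lhx1 cells kept and -0.00307 without cells with markers of another type, and the other progenitor median to 0.0294 with at least 300 UMIs. The insulin and IGF median was -0.228 with the exposed library thinned, and the hypoxia median -0.0365 with Lhx1 cells kept. Log2 ratios of single genes turned as follows. Igfbp7 went to -1.89 with 4 progenitor genes, -1.72 with thinned cells, -0.78 without cells with markers of another type, -0.21 with the exposed library thinned, -0.31 as a mean over cells and -0.66 without the 3% of cells with most UMIs. Cryab went to -0.48 with 4 progenitor genes, -0.55 with 5 cycle genes and -0.15 with the exposed library thinned. Ly6a went to -0.46 with 4 progenitor genes and -0.0384 without cells with markers of another type, Atp1b1 to -0.23 and -0.0701 with 4 progenitor genes and thinned cells, Rab11a and Cdh6 to -0.15 and -0.0722 with thinned cells, and S100g to 0.53 with 5 cycle genes. Depth limits the gate itself: under 4000 UMIs 10.9% of control and 14.6% of exposed gate cells showed 3 cycle genes.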
